A study of Mus musculus with 4 samples.

Results

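Bdnf, Ntf3, Ntrk2, Ntrk3 and Sort1 encode the neurotrophins BDNF and neurotrophin-3, their receptor tyrosine kinases TrkB and TrkC, and sortilin, a sorting receptor for neurotrophin precursors. The genes were chosen by symbol, and every transcript of them in the deposited files was taken: 47 transcripts of 115898 that could be matched to a gene, in 5 of 35427 genes. Of these transcripts, 24 had an estimated read in at least 1 file and 15 had at least 10 reads in a library.

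The RNA came from the hippocampus of C57BL/6J mice aged 4 months of a cross between P2RY12CreER and the RiboTag line Rpl22HA, whose tag on a ribosomal protein is set by Cre recombinase under the promoter of the microglial gene P2ry12. An antibody against the tag then recovers ribosomes with the messages they carry. All mice in both groups were fear conditioned, a training that pairs a place or cue with a shock. Control mice were allowed sleep in the 6 h that followed, and the other group was deprived of it for those 6 h. Each sample pooled 2 mice, and the 2 samples of a group are described as technical replicates. The treatment field names sleep deprivation for all 4 samples, so the groups rest on the sample titles. An inducing drug for the CreER is not named in the labels.

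Within a group, the 2 files differed by less than sampling noise (chi-square per degree of freedom 0.335 for control and 0.226 for sleep-deprived, against 69.2 to 69.4 between groups), so their mean was counted as 1 library. Each comparison is therefore 1 library against 1 library, with no replicate check and no p-value. The files held between 14431647 and 14877011 estimated reads. The pulldown was aimed at microglia, and all 10 microglial markers checked were present. They summed to 161 CPM (reads scaled to library size) in control and 498 CPM after sleep deprivation, beside 3100 and 2628 CPM for 8 neuronal markers and 1997 and 1181 CPM for 8 astrocyte markers. Genes that several cell types express, as these 5 are, could not be assigned to one cell type. Fewer cells of a type, less RNA per cell and a different carry-over of other cells' RNA in the pulldown cannot be told apart.

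BDNF and neurotrophin-3 are made as precursors, cut by proteases such as furin and plasmin, and signal by dimerising TrkB and TrkC, whose intracellular tyrosine kinase starts the Ras, PI3-kinase and phospholipase C pathways. Uncut precursors bind the receptor encoded by Ngfr together with sortilin. Both Trk genes also make truncated receptors that keep the ligand-binding part and the membrane segment but lack the kinase. In adult brain, truncated TrkB is made largely by astrocytes and full-length TrkB largely by neurons. BDNF in the hippocampus is known for its part in synaptic plasticity and memory, and release of BDNF from microglia has been studied in learning.

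The receptor forms part at single splice junctions, shown here because the results on Ntrk2 turn on them. In each line, lower case marks the last 30 coding bases shared with the other forms and capitals mark what is not shared. All stretches are from GENCODE M21 transcripts on GRCm38, 5′ to 3′ along the coding strand. Full-length Ntrk2-201 encodes 821 residues, and only the first 60 bases after the junction are shown. The 3 truncated lines run to the stop codon. Ntrk2-202, the form known as TrkB.T1, encodes 476 residues and adds 11 residues after the junction. Ntrk2-208 encodes 466 residues and adds 1 from a whole codon, and its codon split by the junction also encodes a different residue. Ntrk2-205 encodes 492 residues and adds 27.
Ntrk2-201 (chr13:58985802-58985861, + strand): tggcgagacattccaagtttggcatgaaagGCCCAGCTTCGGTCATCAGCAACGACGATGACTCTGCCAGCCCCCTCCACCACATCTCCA
Ntrk2-202 (chr13:58932023-58932060, + strand): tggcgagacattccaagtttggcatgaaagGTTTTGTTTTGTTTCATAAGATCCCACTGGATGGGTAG
Ntrk2-208 (chr13:58887192-58887199, + strand): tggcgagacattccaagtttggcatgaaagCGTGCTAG
Ntrk2-205 (chr13:58878339-58878424, + strand): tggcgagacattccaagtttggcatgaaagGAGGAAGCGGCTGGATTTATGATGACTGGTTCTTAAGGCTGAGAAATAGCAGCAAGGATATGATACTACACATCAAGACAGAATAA

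In Ntrk3, full-length Ntrk3-201 encodes 825 residues and truncated Ntrk3-202 encodes 612, of which the last 83 come from whole codons after the junction. The codon split by the junction also encodes a different residue in the 2 forms. The first 60 bases after the junction are given for the full-length form, and the whole own coding end, from 2 exons, for the truncated form.
Ntrk3-201 (chr7:78260355-78260414, - strand): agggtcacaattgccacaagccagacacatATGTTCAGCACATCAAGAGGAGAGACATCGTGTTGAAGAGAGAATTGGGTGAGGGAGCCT
Ntrk3-202 (chr7:78302629-78304426, - strand): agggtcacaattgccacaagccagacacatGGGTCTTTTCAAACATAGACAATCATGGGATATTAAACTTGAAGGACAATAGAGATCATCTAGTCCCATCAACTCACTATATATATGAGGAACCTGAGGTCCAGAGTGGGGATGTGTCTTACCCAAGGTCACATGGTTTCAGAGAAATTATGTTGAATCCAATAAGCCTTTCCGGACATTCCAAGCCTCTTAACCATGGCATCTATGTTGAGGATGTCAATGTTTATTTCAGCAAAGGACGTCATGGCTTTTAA

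At the level of whole genes, the sleep-deprived library was close to the control library for all 5. A gene was called higher or lower when the ratio of sleep-deprived over control was at least 2-fold and its exact 95% counting interval excluded 1. Of the 5 genes 0 were called, against 9.91% of the 14907 measured genes, with 4.37% called higher and 5.54% called lower. The intervals, in brackets below, cover counting error and hold nothing about differences between mice.

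Per length, in the authors' TPM (abundance scaled by transcript length), the order of levels was Ntrk3, Ntrk2, Sort1, Ntf3 and Bdnf in both libraries. In control the levels were 117, 64.1, 23.7, 3.56 and 1.77 TPM. Neighbours in this order were apart by more than their counting error in control. In the sleep-deprived library Ntf3 at 3.397 TPM (2.26 to 4.91) and Bdnf at 2.39 TPM (1.85 to 3.03) were not. By the nearest level over the 4 files, the genes most like Bdnf were Tbc1d2, Stil and Igtp (distances 0.0833, 0.0925 and 0.0962 in log2 TPM), and those most like Ntrk2 were Pwwp2a, Zpr1 and Ttc17 (0.0351, 0.0595 and 0.0643), a likeness over 4 files that stand for only 2 libraries.

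**Figure D1:**
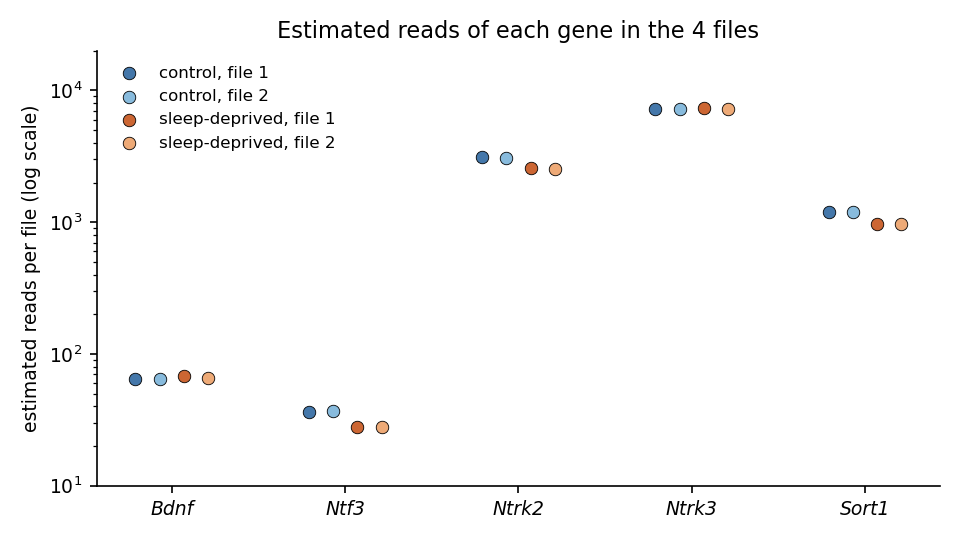
Estimated reads of each gene (log scale) in the 2 control files (blue) and the 2 sleep-deprived files (orange), 1 point per file. The files of a group are level with each other, Ntrk2, Sort1 and Ntf3 sit slightly lower in the sleep-deprived files, and Bdnf and Ntrk3 hardly move.

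Of the ligands, Bdnf (chromosome 2, 109674700 to 109727007, + strand) was represented by few reads. It had 65 and 64 reads in the control files and 68 and 66 in the sleep-deprived files. The groups lay within a few reads of each other. Scaled levels were 4.23 CPM for control and 4.75 CPM for sleep-deprived, which gave a ratio of 1.12 (0.785 to 1.61), so a difference inside these bounds was not detectable at this depth.

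Ntf3 (chromosome 6, 126101412 to 126166910, - strand), the gene of neurotrophin-3, had 36 and 37 reads in control and 28 and 28 in the sleep-deprived files. The sleep-deprived library was lower, but the ratio of 0.834 had an interval (0.490 to 1.41) that included 1. All its reads were placed on Ntf3-203, and the other 2 transcripts were listed at 0. The further ligand gene Ntf5 was too low to be measured, with 8 reads in the control library and 2 in the sleep-deprived one.

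While the total for Bdnf hardly moved, its reads were placed on different transcripts. The 11 Bdnf transcripts start at alternative first exons and share the last exon, which holds the coding sequence of the mature protein. Of these, 7 were at 0 in all 4 files. Bdnf-201, which starts at the most upstream first exon, had 16.4 and 22.0 reads in control and 0 in both sleep-deprived files. Bdnf-210 had 24.8 and 42.0 reads in control and 0 in both sleep-deprived files. Bdnf-205, which starts at 109693563, had 0 reads in both control files and 60.5 and 57.0 in the sleep-deprived files. With the library at 0 set to 3 reads, the ratio was 0.169 (0 to 0.230) for Bdnf-201 and 0.0975 (0 to 0.127) for Bdnf-210. For Bdnf-205 it was 21.1, with a lower limit of 16.6 and no upper limit. These ratios depend on the floor chosen. These 3 transcripts were called, where 12.5% of 39605 measured transcripts were called lower and 22.7% higher.

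Bdnf-209 shows how loosely these reads are tied to a start site. It had 23.9 reads in the first control file and 0 in the second, and 7.53 and 9.04 in the sleep-deprived files, although the control files stand for 1 library. Its ratio was 0.715 (0.253 to 1.90), and it was 0.357 without control replicate 2. Without control replicate 1, which leaves control at 0 and so at the floor, it was 2.85. The bases that belong to 1 Bdnf transcript and no other number 640 of 4266 in Bdnf-201, 83 of 4125 in Bdnf-210, 339 of 3965 in Bdnf-209 and 347 of 3973 in Bdnf-205. In Bdnf-210, 499 bases belong to no other transcript with reads. Since most bases are shared, most reads of Bdnf can be placed on any of these transcripts. The number of reads in first exons is not given by the files. Between the 2 files of one library the same rule called 5.94% of transcripts in control and 6.27% in sleep-deprived, but 0.241% and 0.356% of genes. The antisense gene Gm45346 covers 14.4% of the exon bases of Bdnf, and the sources used here do not say whether the authors counted by strand.

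**Figure D2:**
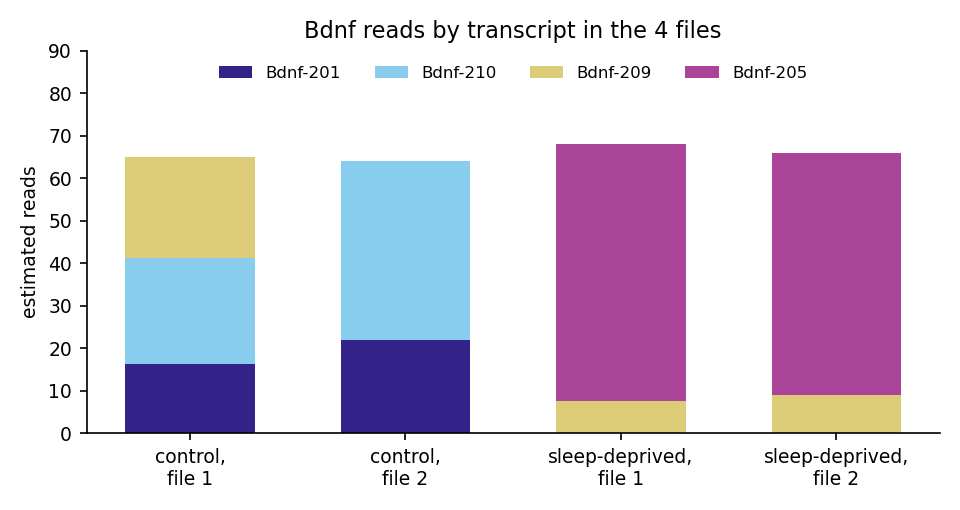
Estimated reads of Bdnf in each file, stacked by transcript in order of start site. The stacks are nearly equal in height, from 64 to 68 reads, while control files hold Bdnf-201 and Bdnf-210 and sleep-deprived files hold Bdnf-205, and Bdnf-209 is absent from control file 2.

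Among the receptors, Ntrk2 (chromosome 13, 58806569 to 59133970, + strand) was the gene whose forms moved apart. As a gene it had 3106 and 3083 reads in control and 2557 and 2535 in the sleep-deprived files. The sleep-deprived library was lower, at 181 CPM against 205 CPM, a ratio of 0.882 (0.837 to 0.930). The lower reads lay on the truncated transcripts, which end at an earlier stop codon.

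Full-length Ntrk2-201 had 1356 and 1345 reads in control and 1388 and 1369 in the sleep-deprived files. It was thus at 89.4 and 97.7 CPM, a ratio of 1.09 (1.01 to 1.18). Ntrk2-207, the other full-length transcript, was at 0 in all files.

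Ntrk2-202, the TrkB.T1 transcript printed above, had 1037 and 1047 reads in control and 676 and 678 in the sleep-deprived files. The levels of 68.9 and 48.0 CPM gave a ratio of 0.697 (0.632 to 0.768). Ntrk2-208, which ends 1 whole codon after the junction, had 697 and 679 reads in control and 481 and 474 in the sleep-deprived files. Its ratio was 0.745 (0.662 to 0.838), so that it lay below control by about the same factor as Ntrk2-202, and their intervals overlapped. Only 79 of its bases belong to no other Ntrk2 transcript, since Ntrk2-209, listed at 0, shares nearly all of them, and 1288 belong to no other transcript with reads. Ntrk2-205 was rare, with 8.99 and 6.03 reads in control and 9.42 and 11.9 in the sleep-deprived files, a ratio of 1.47 (0.540 to 4.22). The other 2 truncated transcripts were at 0.

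Summed over its 5 truncated transcripts, Ntrk2 went from 1737 to 1166 reads. The ratio was 0.720 (0.668 to 0.776) and did not reach 2-fold. Truncated transcripts took 56.3% (exact binomial 95% interval 54.5 to 58.0) of truncated plus full-length reads in control against 45.8% (43.9 to 47.8) after sleep deprivation. The files of a group gave nearly the same share, 56.2% and 56.3% in control and 45.7% and 46.0% in sleep-deprived. In TPM, which takes length into account, the truncated share was 73.5% in control against 65.0% after sleep deprivation. Per length, Ntrk2-202 and Ntrk2-201 were level in control, at 16.8 and 16.9 TPM, and stood at 13.6 and 21.5 TPM in the sleep-deprived library.

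**Figure D3:**
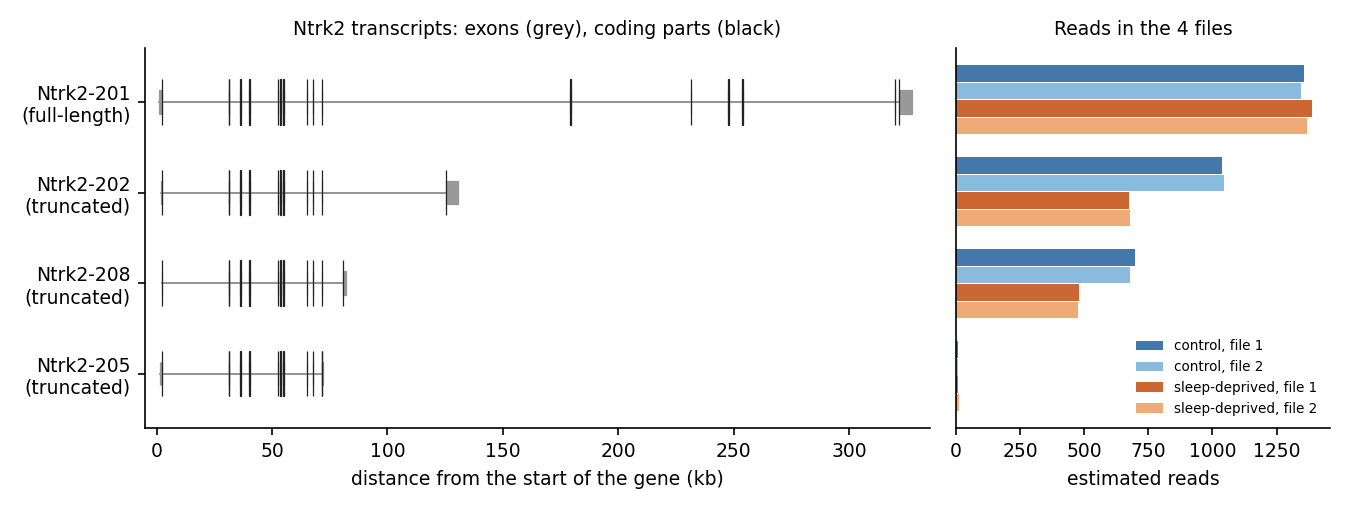
Left, exons (grey) and coding parts (black) of the 4 Ntrk2 transcripts with reads, by distance from the start of the gene in kb. Right, estimated reads of each in the 4 files: Ntrk2-202 and Ntrk2-208 are lower in the sleep-deprived files, while full-length Ntrk2-201 is level or slightly higher.

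The change in share was set against all genes that have both complete coding transcripts ending at the most 3′ stop codon and transcripts ending at an earlier one, with at least 100 reads on them in each library. Of 1844 such genes, 20.5% shifted by 10 percentage points or more, 9.06% towards a lower share of the earlier stop. The shift of Ntrk2 was -10.4 points, and 162 genes (8.79%) shifted as far down or further. The median gene shifted by 0.193 points. A shift of this size was thus not particular to Ntrk2. By single transcripts, the most shifted share of a gene moved by 10 points or more in 41.6% of 9723 genes. In Ntrk2 it was that of Ntrk2-201, which rose from 43.6% to 54.1% of gene reads, and in Ntrk3 that of Ntrk3-201, from 54.0% to 54.2%.

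Of 8 markers of astrocytes, which are known to make truncated TrkB, 3 were called lower and 0 higher. The background for this and the following marker counts is 5.54% of measured genes called lower and 4.37% called higher. All 8 had ratios below 1, from 0.392 for S100b to 0.850 for Aldoc, and their summed level had a ratio of 0.591 (0.580 to 0.603). None of the 8 was at 0. Of the 8 neuronal markers, 0 were called, with ratios from 0.580 for Gad1 to 1.71 for Slc17a7 and a summed ratio of 0.848 (0.836 to 0.859). Oligodendrocyte markers (6 measured, 2 called lower) had a summed ratio of 0.628 (0.619 to 0.637). Their ratios ran from 0.170 for Opalin to 1.47 for Mag, and Mbp alone made up 1657.5 of their 3400 CPM in control. Microglial markers (10 measured, 8 called higher) had a summed ratio of 3.09 (2.95 to 3.24). For endothelial markers (4 measured, 0 called) it was 0.980 (0.919 to 1.05). Oligodendrocyte precursor markers (3 measured, 2 called lower) had a summed ratio of 0.652 (0.553 to 0.767). Mitochondrially encoded genes took 3.19% and 3.22% of reads in the control files and 1.52% in both sleep-deprived files. The part of these markers and of the mitochondrial share in the Ntrk2 result was not tested. Transcript length moved with the ratio too: over measured protein-coding transcripts the median ratio was 1.04 at 2000 to 4000 bases, 1.07 at 4000 to 8000 and 1.08 above 8000. Ntrk2-208, Ntrk2-202 and Ntrk2-201 have 2719, 6846 and 8744 bases.

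Ntrk3 (chromosome 7, 78175959 to 78738012, - strand), the TrkC gene, was the most abundant member and kept its balance of forms. It had 7209 and 7173 reads in control and 7311 and 7267 in the sleep-deprived files, a ratio of 1.09 (1.05 to 1.12) between 476 and 517 CPM. Full-length Ntrk3-201 had 3899 and 3864 reads in control and 3966 and 3930 in the sleep-deprived files. Truncated Ntrk3-202 had 3277 and 3267 reads in control and 3315 and 3298 in the sleep-deprived files.

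The class ratios were 1.09 (1.04 to 1.14) for full-length and 1.08 (1.03 to 1.14) for truncated Ntrk3. The truncated share was 45.7% (44.5 to 46.8) in control against 45.5% (44.4 to 46.7) after sleep deprivation, a shift of -0.155 points that lay inside the counting error. Per length the truncated form prevailed, with 81.2% of TPM in both libraries, since Ntrk3-201 is 19703 bases long and Ntrk3-202 is 3977. The full-length class also held Ntrk3-205, with 6 and 7 reads, and Ntrk3-206, with 3 and 1. The other 16 Ntrk3 transcripts, without a complete coding sequence, held 29 and 27 reads. The share of truncated forms moved in Ntrk2 and hardly in Ntrk3 within the same pair of libraries. That difference between the genes has no replicate test.

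**Figure D4:**
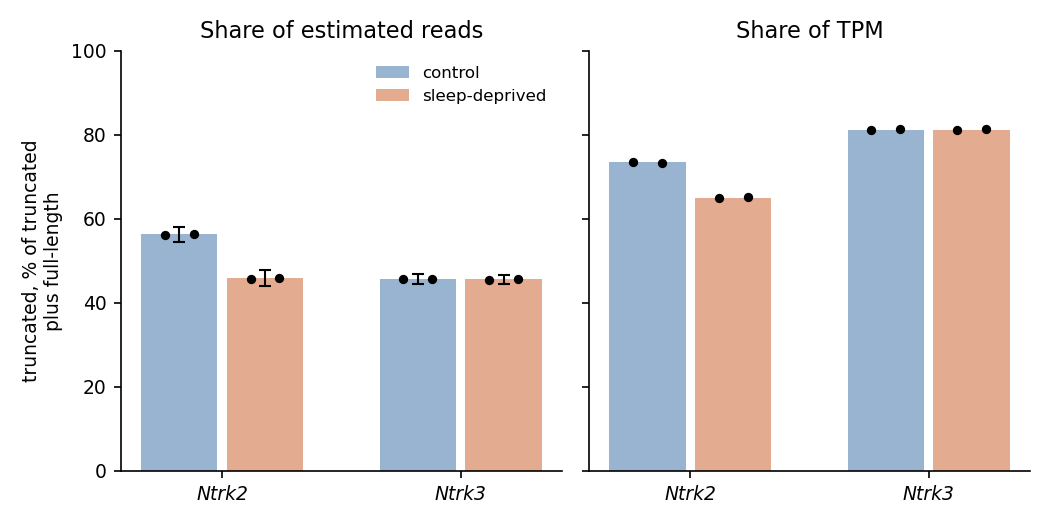
Truncated transcripts as a percentage of truncated plus full-length for Ntrk2 and Ntrk3, in estimated reads (left, bars with exact binomial 95% intervals) and in TPM (right, no intervals), with 1 point per file. The Ntrk2 share is lower in the sleep-deprived library by either unit, and the Ntrk3 bars are level.

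**Figure D5:**
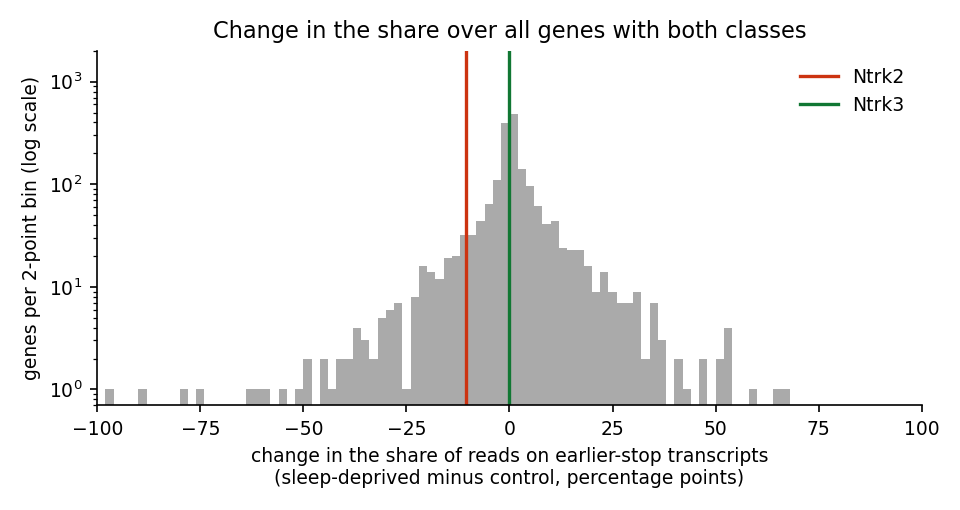
Change in the share of reads on transcripts with an earlier stop codon, sleep-deprived minus control in percentage points, for 1844 genes in bins of 2 points (log scale). Ntrk2 (red line, -10.4) lies in the left flank of the distribution and Ntrk3 (green line, -0.155) at its centre.

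Sort1 (chromosome 3, 108284082 to 108361511, + strand), the sortilin gene, had 1203 and 1196 reads in control and 976 and 975 in the sleep-deprived files. It was lower in the sleep-deprived library, at 79.4 and 69.2 CPM (ratio 0.872, 0.801 to 0.9498). Most of its reads were placed on Sort1-202, a transcript of 3′ exons annotated as a retained intron. It took 65.9% (63.2 to 68.6) of gene reads in control against 63.3% (60.1 to 66.2) after sleep deprivation. Only 665 of 5193 bases of Sort1-202 and 68 of 6796 of Sort1-201 belong to no other Sort1 transcript. Reads of the shared bases can be placed on either, an uncertainty that the intervals do not cover. Over all genes, retained-intron transcripts took 10.6% of control reads and 13.3% of sleep-deprived reads.

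The coding transcript Sort1-201 encodes 825 residues and Sort1-203 encodes 858, through an added exon of 99 bases that the RNA-binding protein TDP-43 is known to keep out. It is printed in full because it sets their coding sequences apart.
Sort1-203 added exon (chr3:108355472-108355570, + strand): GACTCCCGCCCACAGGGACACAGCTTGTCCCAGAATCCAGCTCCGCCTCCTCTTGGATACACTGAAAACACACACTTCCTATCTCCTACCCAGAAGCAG

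Sort1-201 had 405 and 405 reads in control and 311 and 344 in the sleep-deprived files, a ratio of 0.866 (0.746 to 1.004). Sort1-203 had 4.29 and 4.16 reads in control and 41.0 and 20.5 in the sleep-deprived files. The first sleep-deprived file held many more of these reads than the second, although the 2 files stand for 1 library. Sort1-203 was called higher with a ratio of 8.31 (2.94 to 32.4), and with 5.62 without sleep-deprived replicate 1 and 10.96 without sleep-deprived replicate 2. It took 1.03% (0.267 to 2.48) of Sort1-201 plus Sort1-203 reads in control against 8.59% (5.96 to 12.1) after sleep deprivation. The added exon also lies inside Sort1-202, and only 9 bases of Sort1-203 belong to no other Sort1 transcript. Reads of that exon can thus be placed on either, which makes the value uncertain.

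In all, 4 of 15 measured transcripts of the 5 genes were called (26.7%), 2 higher and 2 lower, where 35.2% of all measured transcripts were. With only 15 transcripts, no difference from the background is read from this share. Most of the calls are Bdnf transcripts, among which the same reads can be placed.

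The other genes of the pathway were counted by list, beside the background of 4.37% of measured genes called higher and 5.54% called lower. Of the receptors, Ngfr, which binds precursors with sortilin, had 14 and 21 reads, a ratio of 1.61 (0.780 to 3.42). Of the 5 genes of the sortilin family 0 were called. Sorl1, by far the most abundant of them, stood at 550 and 698 CPM (ratio 1.27, 1.23 to 1.31), in the opposite direction to Sort1, and Sorcs3 was at 18.3 and 21.3 CPM.

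Of 13 genes for precursor cutting and release 11 were measured, with 2 lower (background 5.54%) and 0 higher (4.37%) and a median ratio of 0.928, against 1.001 over all measured genes. Plg, the gene of plasminogen, was lower on 17 and 3 reads, a ratio of 0.189 (0.0355 to 0.654). Mmp9, a matrix protease that can cut the BDNF precursor, stood at 8.53 and 3.404 CPM (ratio 0.399, 0.280 to 0.560). In the deposited TPM, where the median gene was itself higher, its ratio was 0.524 and did not reach the rule. Mmp3 and Mmp7 had 0 reads in all files.

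All 19 receptor adaptor genes were measured, with 2 higher (background 4.37%) and 0 lower (5.54%) and a median ratio of 1.13. Frs3, a docking protein of Trk receptors, stood at 9.39 and 19.1 CPM (ratio 2.04, 1.66 to 2.52), and Shc1, an adaptor that links receptors to Ras, had a ratio of 2.005 (1.65 to 2.44). Both stood at the edge of the rule, at 1.95 and 1.92 with scaling by library totals, and Shc1 was at 1.992 without control replicate 2 and 1.967 without sleep-deprived replicate 2. Of 23 kinases and GTPases downstream of the receptors 0 were called, with a median ratio of 1.07. Among the most abundant were Rps6ka1, with a ratio of 1.32 (1.25 to 1.40), and Mtor, with 1.44 (1.36 to 1.53).

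Of 12 genes that respond to BDNF 11 were measured, with 2 higher (background 4.37%) and 1 lower (5.54%) and a median ratio of 1.05. Fos had a ratio of 4.23 (3.12 to 5.81). Vgf, a secreted neuropeptide precursor, had 62 and 118 reads, a ratio of 2.04 (1.49 to 2.82) that was 1.956 with scaling by library totals. Nptx2 was lower on 18 and 5 reads, a ratio of 0.298 (0.0864 to 0.832). Of 14 transcription factors and coregulators of the Bdnf gene 1 was higher (background 4.37%) and 0 lower (5.54%), with a median ratio of 0.968. This was Npas4, which is induced by activity and binds Bdnf promoters, at 3.37 and 20.7 CPM (ratio 6.14, 4.55 to 8.44), beside the ratio of 1.12 of Bdnf itself.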

How the data were processed

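RNA from a ribosome pulldown of mouse hippocampus, enriched for polyA per the labels' protocols, was quantified in 4 samples. The deposited files list, per the file headers, length, effective length, TPM and estimated counts (reads, fractional, not normalized) for 116546 transcripts. Per the submitters' processing notes, Salmon, DESeq2 and mm10 were used. The sources used here give no Salmon version, annotation or read layout. The TPM values are the authors' length-scaled abundances, deposited in the same files. Of the long transcripts (over 1000 bases), 99.2% had an effective length 250 bases below their length.

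Transcript identifiers, with the version removed, were looked up in GENCODE M21 (GRCm38), where 99.4% were found, and reads were summed per gene. The unmatched share of reads was 0.339% to 0.366%. The files of a group were compared by chi-square over genes with at least 20 reads, averaged and rounded. TMM factors over all genes (edgeR 4.0.16, R 4.3.3) gave CPM, and the same factors were used for transcripts. Measured features are those that filterByExpr kept at a minimum count of 10. Ratios carry exact conditional 95% intervals (scipy 1.17.1), and libraries under 3 reads were set to 3. Reads are not independent molecules, so intervals cover counting error only. The rule was tested on simulated gene counts with counting error only, which does not cover the placing of reads among transcripts.

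Truncated and full-length were assigned by stop codon, over complete coding transcripts: full-length ends at the most 3′ annotated stop codon of the gene. The genes, lists and rules were chosen with earlier results of these data known. Named were all members and their transcripts with at least 10 reads, the called genes of each pathway list or else the 3 most abundant, and for Bdnf and Ntrk2 the 3 nearest genes in log2(TPM + 0.1). Some genes that the rule or the lists hold are not reported here. The comparison of the share over all genes with both classes was added after the members' values were seen. Planned tests across replicates (edgeR quasi-likelihood, DESeq2) were not run, since 1 library per group leaves no residual degrees of freedom.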

Additional observations from a re-analysis of the deposited data

How the results depend on the processing

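No paired analysis was possible because the 2 files of a group count as 1 library, so a replicate block has no residual degrees of freedom; the planned DESeq2 and edgeR tests were not run for the same reason. Leaving out 1 file at a time gave gene ratios from 0.878 to 0.884 for Ntrk2 and from 1.11 to 1.14 for Bdnf. The change in the truncated share of Ntrk2 lay between -10.6 and -10.3 points. Since the files of a group stand for 1 library, this could hardly move such values and is no check across mice. With scaling by library totals the Ntrk3 ratio was 1.04 in place of 1.09. With the transcript length offset the ratio was 0.832 for Ntrk2 and 1.25 for Ntrk3. The median measured gene was higher in the sleep-deprived library by 0.21 (log2) in the deposited TPM, against 0.00 in scaled reads. In TPM, on that shifted scale, the ratio was 0.961 for Ntrk2, 1.47 for Ntrk3 and 1.005 for Sort1. Sort1 thus lay below the median gene in TPM, as it did in scaled reads. By class the TPM ratio was 1.27 for full-length and 0.852 for truncated Ntrk2, and 1.26 for both full-length and truncated Ntrk3. The gene TPM of Ntrk3 in the second sleep-deprived file, 199 against 146 in the first, holds 53.0 TPM from 5 reads on Ntrk3-216, a transcript of 224 bases. A rule of 1.5-fold called 3866 genes in place of 1477. The truncated share of Ntrk2 was lower in the sleep-deprived library under every setting run. Most of these settings left out 1 file and so could hardly have moved the share. In TPM it changed by -8.46 points. Depth limits Bdnf and Ntf3, at 28 to 67 reads a library, and all calls on their transcripts.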
